A study of Mus musculus with 25 samples.

Results

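The genes described here are 45 mouse genes of mitosis and chromosome segregation, taken as a fixed list of symbols from the 46078 genes of a raw count table. The list follows the known roles of the genes and sets no threshold on their measured values, but it was drawn up with earlier results of these data known. They cover the cyclins and CDK1 with their transcription factors, chromosome structure, the mitotic kinases, the spindle checkpoint, the centromere and kinetochore, spindle motors, the midzone and cytokinesis, and the onset of anaphase. All 45 were found in the table and all 45 passed the filter on low counts, which needed about 10 counts in enough libraries for the smallest group.

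Most of these genes are transcribed only late in the cell cycle, in G2 and M phase, and are kept silent in resting cells by the DREAM complex. MuvB, the core of DREAM, then joins B-MYB (Mybl2) and FOXM1 to switch them on, and binds promoters at the cell cycle homology region (CHR), a short element that often lies close to a CCAAT box bound by NF-Y. Resting lymphocytes therefore carry little of their RNA, whereas immature NK cells in bone marrow and lymphoid cells of the fetal liver are known to divide.

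Bulk RNA-seq was performed on group 1 innate lymphoid cells (G1-ILCs: NK cells and ILC1s) of wild-type C57BL/6 mice (C57BL/6J in the methods of the study), all sorted as CD3- NK1.1+ NKp46+ cells. The study compared fetal and adult liver subsets with those of other tissues. FL G1-ILCs came from fetal liver (FL) at E18.5, late in gestation, and were CD49a int CD49b int (4 libraries), and all other groups came from mice aged 8 weeks. Bone marrow (BM) gave immature ILC1s (iILC1s), CD49a+ CD49b lo (3 libraries), and NK cells, CD49a- CD49b+ (3 libraries). LPL ILC1s of the small intestinal lamina propria were CD27+ IL-7R+ (4 libraries), and SG G1-ILCs of the salivary gland were CD49a+ CD49b+ (2 libraries). Adult liver (AL) gave 7R+ ILC1s (3 libraries) and 7R- ILC1s (4 libraries), both CD49a+ CD49b lo and separated by IL-7R, and NK cells, CD49a- CD49b+ (2 libraries). Per the methods of the study, gut and salivary gland cells were released with collagenase and DNase. Fetal and adult liver were dissociated mechanically and marrow was flushed out. Differences of LPL ILC1s and SG G1-ILCs from the other groups therefore cannot be told apart from this preparation. Each library was made from a small pool of sorted cells, and pooling of animals is not given in the sources used here.

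Library totals ranged from 2302643 to 7995906 counts (median 4603579). FL G1-ILC replicates 2 and 3 differed by little more than counting noise (chi-square 1.172 per degree of freedom, against 3.379 to 10.74 in the other 28 pairs of replicates), so their counts were summed and the 25 libraries were treated as 24 samples. FL values are given below in the order replicate 1, replicates 2 and 3 summed, and replicate 4. The sort markers were high in every group: the mean of Klrb1c, which encodes NK1.1, was 980.1 CPM in FL G1-ILCs and 912 to 2165 CPM in the adult groups, and Ncr1, which encodes NKp46, was at 604 CPM in FL G1-ILCs and 507 to 1951 CPM in the adult groups. Markers of dividing blood precursors were low beside this. The 8 progenitor genes summed to 19.3, 23.3 and 17.6 CPM in FL G1-ILCs. Lower without overlap were BM NK cells (5.50 to 11.0 CPM), AL 7R- ILC1s (2.70 to 8.04 CPM) and AL NK cells (13.5 to 13.9 CPM). So were AL 7R+ ILC1s (7.26 to 9.70 CPM) and SG G1-ILCs (7.61 to 9.10 CPM). LPL ILC1s (21.1 to 27.8 CPM) and BM iILC1s (14.3 to 30.3 CPM) overlapped the FL samples and reached higher values. In FL G1-ILCs the means were highest for Mycn (9.61 CPM) and Meis1 (8.47 CPM), Cd34 was at 0.366 CPM and Flt3 at 0.555 CPM, and Procr was at 0. The 10 erythroid genes summed to 27.3, 226 and 159 CPM in FL G1-ILCs, against 2.33, 4.43 and 2.43 CPM in BM NK cells. The erythroid sum was 2.49, 161, 415 and 0.754 CPM in AL 7R- ILC1s and 71.1, 10.4 and 202 CPM in BM iILC1s. It was 0.619 to 33.7 CPM in the samples of the remaining groups. In the same FL samples the mitosis genes summed to 10587, 9563 and 10313 CPM. The part of precursor RNA in the results was not tested. The study describes its replicates as biological. Whether each came from its own animal is not given in the labels, and p-values cover only the spread between these libraries. Counting all 4 FL libraries apart, as the study did, gave 44 members higher in each of the 3 comparisons of FL G1-ILCs given below.

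Summed over the 45 genes, the normalized level, in CPM (each count relative to its library total after TMM scaling), was by far the highest in the fetal liver. It was 10587, 9563 and 10313 CPM in the FL G1-ILC samples, against 1045, 1011 and 544 CPM in BM iILC1s and 2782, 4030.5 and 1675 CPM in BM NK cells. The sum was 881, 906, 1001 and 913 CPM in LPL ILC1s, 911 and 1079 CPM in SG G1-ILCs, 543, 747 and 833 CPM in AL 7R+ ILC1s, 532, 478, 693 and 493 CPM in AL 7R- ILC1s and 1011 and 1009 CPM in AL NK cells. FL G1-ILCs did not overlap any adult sample, and BM NK cells, whose libraries differed among themselves by more than those of the other groups, stood above all other adult samples. The ratio of the FL mean to the adult mean was 3.59 against BM NK cells, the smallest among the 7 adult groups, and 10.06 against AL NK cells. In bulk libraries a larger share of dividing cells and more of this RNA per dividing cell cannot be told apart.

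**Figure D1:**
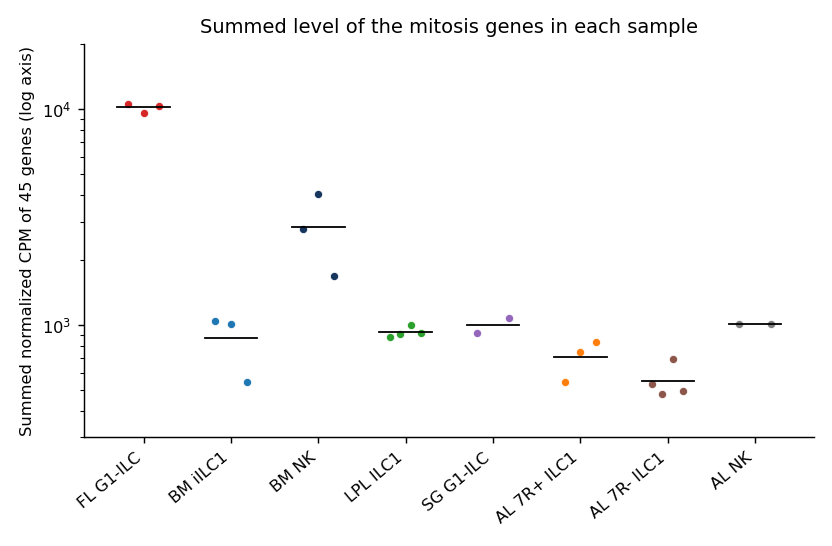
Summed normalized CPM of the 45 mitosis genes (log axis) in each of 24 samples, by group, with a horizontal line at each group mean. The 3 FL G1-ILC samples sit between 9563 and 10587 CPM, the 3 BM NK samples between 1675 and 4030 CPM, and all other samples between 478 and 1079 CPM.

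The same order held gene by gene. FL G1-ILCs were the highest group for 44 of 45 members, and BM NK cells came second for 43 of them. Every FL sample lay above all 21 adult samples for 44 members, where 11.2% of the 14123 genes tested did so. Every BM NK sample lay above all adult samples of the other groups for 34 members, against 1.73% of all genes. AL NK cells were the third group for 28 members, and AL 7R- ILC1s were the lowest for 31. The order of neighbours below BM NK cells often rested on differences within the spread of the libraries, as the tests below show. Within groups, BM NK replicate 2 was above replicate 1, and replicate 1 above replicate 3, for 43 members. Replicate 3 of BM iILC1s was the lowest of its group for 42. The share of all genes with these orders was not computed, so they are not read as particular to the members.

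**Figure D2:**
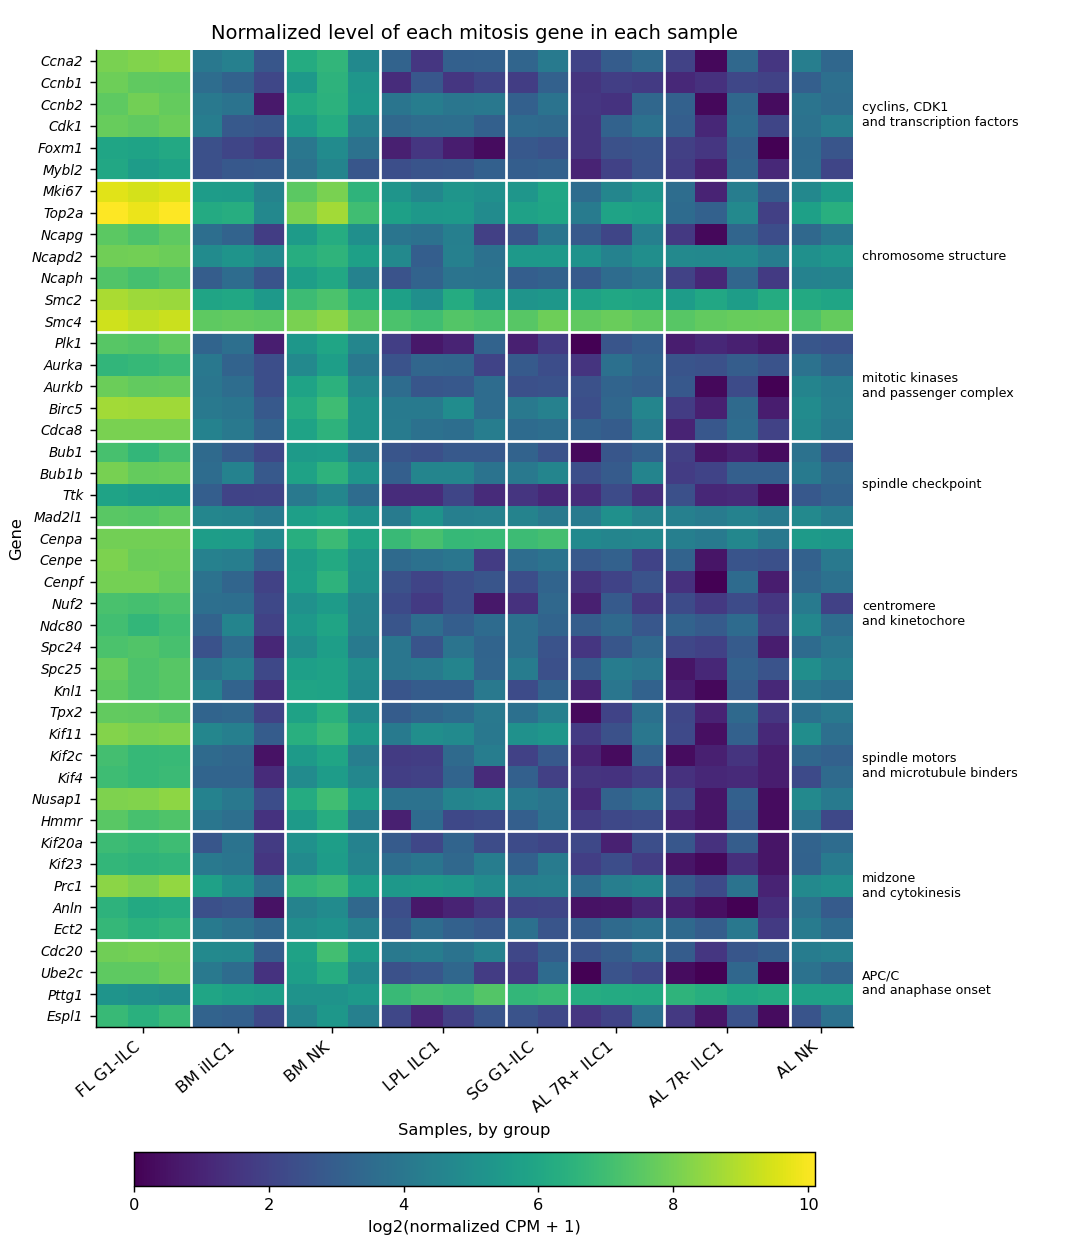
Normalized level of each of the 45 genes (rows, by role) in each of 24 samples (columns, by group), as log2(normalized CPM + 1). The FL G1-ILC columns are brightest for 44 of 45 genes and the BM NK columns come next for 43, while Pttg1 is dimmest in FL G1-ILCs and Smc4 is bright in all groups.

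The fetal group was compared with 3 adult groups, and these comparisons share its samples. Against AL 7R- ILC1s, 44 members were higher and 1 was lower in FL G1-ILCs (edgeR quasi-likelihood test, adjusted p under 0.05), where 22.4% of all genes were called higher and 20.1% lower. The median log2 fold change was 5.57 over the members and -0.06 over all genes. Against AL NK cells the counts were again 44 higher and 1 lower (all genes: 19.8% higher, 16.6% lower), with a median of 3.67 against 0.03 over all genes. Against BM NK cells, the group nearest in level, 43 members were higher and 0 were lower (all genes: 19.4% higher, 14.3% lower), with a median of 1.84 against 0.04 over all genes. No member was lower there at an unadjusted p under 0.05 either, and DESeq2 called 35 higher and 0 lower. The gene lower in FL G1-ILCs in the first 2 of these comparisons was Pttg1, and Pttg1 and Kif2c were the members not called against BM NK cells. Kif2c, a kinesin that depolymerizes microtubules at centromeres, was at 134, 107 and 112 CPM in FL G1-ILCs, against 44.5, 60.7 and 19.0 CPM in BM NK cells, and these samples did not overlap (log2 fold change 1.5 ± 0.62 (SE), edgeR adjusted p = 0.0636).

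**Figure D3:**
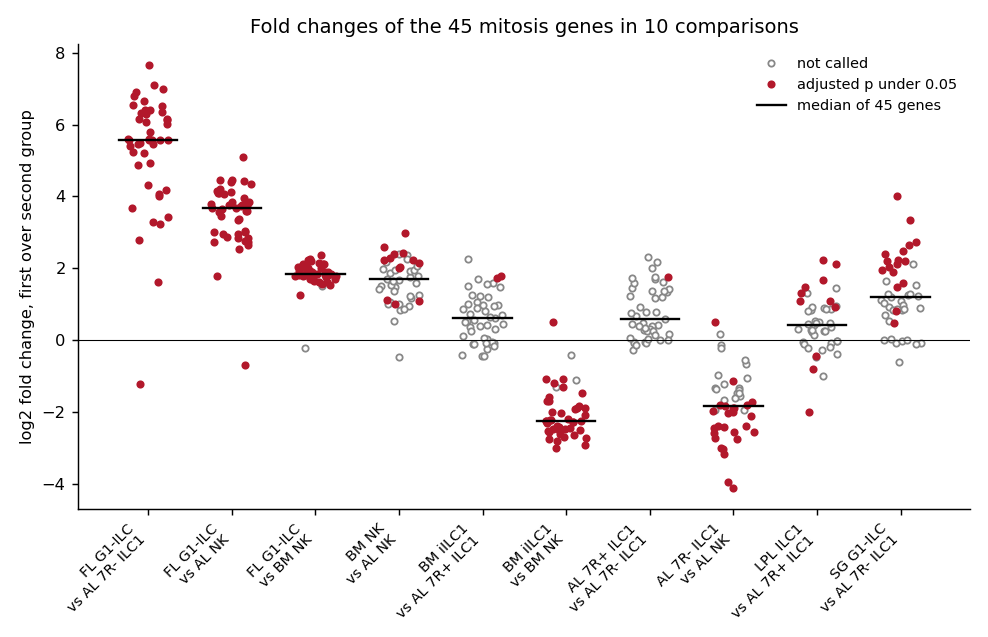
log2 fold change of the 45 genes (points) in 10 comparisons, first-named group over second, from the edgeR fit; filled points have an adjusted p under 0.05 and the horizontal line is the median of the 45. The medians are 5.57, 3.67 and 1.84 in the 3 comparisons of FL G1-ILCs, and the single filled point below 0 in the first 2 is Pttg1.

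Among the cyclins, CDK1 and their transcription factors, all 6 members were higher in FL G1-ILCs in each of the 3 comparisons. Ccna2, which encodes cyclin A2, the partner of CDK2 in S phase and of CDK1 in G2, was at 264, 293 and 311 normalized CPM in FL G1-ILCs, against 15.3, 20.2 and 5.59 in BM iILC1s and 72.8, 100.4 and 26.5 in BM NK cells. Ccna2 was at 8.17, 2.01, 7.62 and 7.76 CPM in LPL ILC1s and 8.74 and 16.4 in SG G1-ILCs, and in adult liver at 3.09, 6.62 and 10.1 in 7R+ ILC1s, 2.98, 0.169, 9.69 and 2.01 in 7R- ILC1s and 18.8 and 9.35 in NK cells. The FL and BM NK samples thus lay apart from one another and from everything else, and AL 7R- replicate 2 was nearly without Ccna2 reads. Ccnb2, a B-type cyclin that activates CDK1, was at 191, 249 and 210.4 normalized CPM in FL G1-ILCs, against 16.1, 13.4 and 0.599 in BM iILC1s and 69.5, 89.8 and 41.1 in BM NK cells. Ccnb2 was at 14.3, 18.4, 14.7 and 15.5 CPM in LPL ILC1s and 7.61 and 13.4 in SG G1-ILCs, and in adult liver at 2.06, 1.77 and 9.44 in 7R+ ILC1s, 7.70, 0.169, 9.40 and 0.251 in 7R- ILC1s and 13.9 and 11.3 in NK cells. BM iILC1 replicate 3 and AL 7R- replicates 2 and 4 were nearly without Ccnb2 reads, so these groups overlapped one another. Against BM NK cells, the fold changes of the 6 genes ran from 1.70 for Ccnb2 to 2.19 for Cdk1 on the log2 scale. Foxm1 and Mybl2, the activators of the program, were among them. Foxm1 was at 61.0, 56.3 and 67.4 CPM in FL G1-ILCs, against 15.0, 28.3 and 13.0 CPM in BM NK cells (log2 fold change 1.71 ± 0.52 (SE), edgeR adjusted p = 0.0117). Mybl2 was at 66.1, 46.4 and 55.9 CPM in FL G1-ILCs, against 13.2, 22.7 and 5.46 CPM in BM NK cells (log2 fold change 2.02 ± 0.54 (SE), edgeR adjusted p = 0.00466).

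All 7 genes of chromosome structure were higher in FL G1-ILCs in the 3 comparisons. Mki67, whose product Ki-67 coats mitotic chromosomes and is the usual stain for dividing cells, was at 796, 701 and 772 normalized CPM in FL G1-ILCs, against 46.7, 45.6 and 22.0 in BM iILC1s and 186, 265 and 95.1 in BM NK cells. Mki67 was at 37.9, 24.7, 37.9 and 33.0 CPM in LPL ILC1s and 38.4 and 61.7 in SG G1-ILCs, and in adult liver at 10.7, 24.1 and 36.5 in 7R+ ILC1s, 11.2, 1.01, 18.7 and 6.28 in 7R- ILC1s and 25.3 and 44.8 in NK cells. It was higher in FL G1-ILCs against each of the 3 groups, BM NK cells included (log2 fold change 2.05 ± 0.40 (SE), edgeR adjusted p = 0.000216). Top2a, which encodes the topoisomerase that untangles sister chromatids, was at 1088, 898 and 1096 normalized CPM in FL G1-ILCs, against 70.3, 78.0 and 25.6 in BM iILC1s and 265, 414 and 127 in BM NK cells. Top2a was at 52.2, 41.0, 42.7 and 28.5 CPM in LPL ILC1s and 54.4 and 59.9 in SG G1-ILCs, and in adult liver at 17.3, 56.9 and 52.7 in 7R+ ILC1s, 10.7, 7.75, 25.8 and 2.76 in 7R- ILC1s and 53.0 and 81.5 in NK cells. Both genes had their lowest group mean in AL 7R- ILC1s, and Top2a had the highest CPM of all members in the fetal samples, a value that also reflects the length of its transcript. Per kilobase of exon, the highest FL means were those of Ccnb2 at 142 CPM per kilobase and Cdc20 at 129. The condensin subunits, which fold chromosomes before segregation, differed in their adult levels. Ncapg and Ncaph, found in condensin I alone, were at 0.169 to 8.68 CPM and 1.18 to 9.11 CPM in AL 7R- ILC1s. Smc2 and Smc4, the ATPase pair of both condensins, were at 47.2 to 73.9 CPM and 176 to 220.1 CPM in the same libraries.

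Smc4 was the flattest member among adult cells, at 669, 568 and 622 normalized CPM in FL G1-ILCs, against 190.1, 203 and 191 in BM iILC1s and 265, 321 and 187 in BM NK cells. Smc4 was at 152, 128, 166 and 151 CPM in LPL ILC1s and 175 and 236 in SG G1-ILCs, and in adult liver at 196, 219 and 194 in 7R+ ILC1s, 176, 206, 212 and 220.1 in 7R- ILC1s and 152 and 209 in NK cells. Its highest adult group mean was 1.73 times its lowest, the smallest such ratio of the 45, yet it was higher in FL G1-ILCs relative to AL 7R- ILC1s (log2 fold change 1.61 ± 0.14 (SE), edgeR adjusted p = 4.5e-10) and to BM NK cells (log2 fold change 1.26 ± 0.15 (SE), edgeR adjusted p = 2.33e-07). Condensin II is built on the same ATPases, and its own subunits, from the wider list of mitotic genes, were likewise present in all groups. Ncaph2 was at 308, 315 and 302 CPM in FL G1-ILCs, against 150.2 to 189 CPM in BM NK cells and 135 to 149 CPM in AL 7R- ILC1s (log2 fold change 1.12 ± 0.10 (SE), edgeR adjusted p = 8.85e-10).

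All 5 genes of the mitotic kinases and the chromosomal passenger complex, which corrects faulty attachments of chromosomes, were higher in FL G1-ILCs in the 3 comparisons. Birc5, encoding survivin of that complex, was at 414, 406 and 401 normalized CPM in FL G1-ILCs, against 15.9, 14.1 and 5.99 in BM iILC1s and 75.7, 123 and 35.4 in BM NK cells. Birc5 was at 16.9, 16.9, 29.2 and 10.8 CPM in LPL ILC1s and 16.1 and 21.0 in SG G1-ILCs, and in adult liver at 4.33, 9.27 and 22.9 in 7R+ ILC1s, 2.49, 0.843, 10.1 and 0.754 in 7R- ILC1s and 28.3 and 19.2 in NK cells. It had the largest log2 fold change of the 45 against BM NK cells, 2.38 ± 0.46 (SE; edgeR adjusted p = 0.000201). Cdca8, encoding borealin, its partner, was at 264, 270.1 and 271 normalized CPM in FL G1-ILCs, against 21.0, 15.9 and 8.19 in BM iILC1s and 56.5, 91.2 and 35.8 in BM NK cells. Cdca8 was at 17.2, 12.6, 11.7 and 18.6 CPM in LPL ILC1s and 10.4 and 11.6 in SG G1-ILCs, and in adult liver at 7.84, 6.62 and 16.4 in 7R+ ILC1s, 0.994, 5.73, 10.9 and 3.02 in 7R- ILC1s and 25.1 and 16.8 in NK cells. The FL samples lay close together for both genes, while the BM NK libraries spread over more than 2-fold. Plk1, the polo kinase that drives mitotic entry, had the largest log2 fold change against AL 7R- ILC1s, 7.66 ± 0.71 (SE; edgeR adjusted p = 1.8e-09), with 176, 163 and 196 CPM in FL G1-ILCs, against 0.746, 1.18, 0.868 and 0.503 CPM in AL 7R- ILC1s. The 4 AL 7R- values rest on 3, 7, 6 and 2 counts, so the size of such folds depends on a few reads.

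The 4 genes of the spindle checkpoint, which holds anaphase until all kinetochores are attached, were higher in FL G1-ILCs in the 3 comparisons. Bub1b, encoding BubR1, was at 260.3, 208 and 215 normalized CPM in FL G1-ILCs, against 11.0, 21.4 and 5.99 in BM iILC1s and 55.2, 91.7 and 37.4 in BM NK cells. Bub1b was at 7.29, 22.9, 23.4 and 13.6 CPM in LPL ILC1s and 15.8 and 23.5 in SG G1-ILCs, and in adult liver at 4.33, 6.4 and 22.6 in 7R+ ILC1s, 2.49, 3.03, 7.23 and 7.29 in 7R- ILC1s and 16.4 and 9.59 in NK cells. Mad2l1, encoding MAD2, which binds and blocks CDC20, was present in every adult sample. It was at 180.2, 171 and 189.9 normalized CPM in FL G1-ILCs, against 23.8, 22.8 and 16.4 in BM iILC1s and 50.8, 57.9 and 34.4 in BM NK cells. In the other groups, which overlapped one another, Mad2l1 was at 17.5, 35.0, 19.3 and 20.8 CPM in LPL ILC1s and 22.0 and 16.2 in SG G1-ILCs, and in adult liver at 16.5, 32.7 and 21.7 in 7R+ ILC1s, 20.1, 17.5, 21.4 and 17.1 in 7R- ILC1s and 25.8 and 18.46 in NK cells. Its log2 fold change against AL 7R- ILC1s, 3.24 ± 0.23 (SE; edgeR adjusted p = 1.97e-11), was the fourth lowest of the 45, while Bub1, the kinase that recruits the checkpoint, had 6.91 ± 0.59 (SE; edgeR adjusted p = 4.01e-10).

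All 8 genes of the centromere and kinetochore were higher in FL G1-ILCs in the 3 comparisons. Cenpe, a kinesin that moves chromosomes to the spindle equator, was at 276, 226 and 232 normalized CPM in FL G1-ILCs, against 20.8, 18.9 and 7.79 in BM iILC1s and 47.8, 68.5 and 36.8 in BM NK cells. Cenpe was at 10.2, 12.6, 14.7 and 2.49 CPM in LPL ILC1s and 11.3 and 13.4 in SG G1-ILCs, and in adult liver at 5.98, 7.73 and 3.11 in 7R+ ILC1s, 8.2, 0.506, 5.21 and 4.52 in 7R- ILC1s and 7.76 and 15.8 in NK cells. The 4 genes of the NDC80 complex, the microtubule grip of the kinetochore, were called as well: the log2 fold changes against BM NK cells were 1.56 ± 0.43 for Ndc80, 2.1 ± 0.49 for Nuf2, 2.24 ± 0.48 for Spc24 and 1.99 ± 0.48 for Spc25 (SE). Cenpa, the histone H3 variant that marks the centromere, had a pattern of its own among adult cells, described below.

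All 6 spindle motors and microtubule binders were higher in FL G1-ILCs against both adult liver groups, and all but Kif2c against BM NK cells. Kif11, the kinesin that pushes spindle poles apart, was at 298, 270.3 and 283 normalized CPM in FL G1-ILCs, against 24.1, 19.2 and 6.59 in BM iILC1s and 81.0, 113 and 44.5 in BM NK cells. Kif11 was at 16.3, 30.4, 27.4 and 15.5 CPM in LPL ILC1s and 33.6 and 38.4 in SG G1-ILCs, and in adult liver at 2.27, 4.64 and 15.0 in 7R+ ILC1s, 3.73, 0.337, 7.81 and 1.26 in 7R- ILC1s and 29.8 and 12.0 in NK cells. Nusap1, which bundles spindle microtubules, was at 283, 287 and 336 normalized CPM in FL G1-ILCs, against 21.4, 15.5 and 4.19 in BM iILC1s and 73.7, 129 and 50.8 in BM NK cells. Nusap1 was at 12.8, 12.9, 22.4 and 25.2 CPM in LPL ILC1s and 16.6 and 13.6 in SG G1-ILCs, and in adult liver at 1.24, 8.39 and 11.5 in 7R+ ILC1s, 3.48, 0.506, 7.52 and 0.251 in 7R- ILC1s and 26.3 and 17.0 in NK cells. For both genes the adult samples outside BM NK cells were under 40 CPM, and the lowest values were in AL 7R- ILC1s.

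All 5 midzone and cytokinesis genes were higher in FL G1-ILCs in the 3 comparisons. Prc1, which bundles the midzone microtubules, was at 322, 271 and 351 normalized CPM in FL G1-ILCs, against 53.8, 31.2 and 11.6 in BM iILC1s and 99.5, 118 and 51.2 in BM NK cells. Prc1 was at 40.2, 44.5, 38.1 and 28.5 CPM in LPL ILC1s and 19.5 and 20.2 in SG G1-ILCs, and in adult liver at 10.7, 19.2 and 22.7 in 7R+ ILC1s, 6.46, 3.88, 13.3 and 1.01 in 7R- ILC1s and 26.0 and 31.4 in NK cells. BM iILC1 replicate 1 overlapped the BM NK samples for this gene. Ect2, the exchange factor that activates RhoA for the cleavage furrow, was at 104, 86.4 and 98.7 normalized CPM in FL G1-ILCs, against 16.9, 13.2 and 9.38 in BM iILC1s and 29.8, 34.9 and 20.8 in BM NK cells. Ect2 was at 5.25, 10.9, 7.88 and 6.09 CPM in LPL ILC1s and 12.1 and 5.31 in SG G1-ILCs, and in adult liver at 6.60, 10.2 and 12.6 in 7R+ ILC1s, 9.94, 6.91, 15.5 and 2.26 in 7R- ILC1s and 17.5 and 10.5 in NK cells. The highest adult group mean of Ect2 was 3.79 times the lowest, against 31.7 times for Anln, the anillin gene, which was at 70.2 to 92.4 CPM in FL G1-ILCs, against 0 to 1.51 CPM in AL 7R- ILC1s.

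Of the 4 genes of anaphase onset, Cdc20, Ube2c and Espl1 were higher in FL G1-ILCs in the 3 comparisons. Cdc20, the activator of the anaphase-promoting complex (APC/C), was at 236, 252 and 237 normalized CPM in FL G1-ILCs, against 25.9, 24.9 and 6.99 in BM iILC1s and 55.2, 130.5 and 47 in BM NK cells. Cdc20 was at 15.7, 18.6, 13.2 and 20.5 CPM in LPL ILC1s and 3.38 and 6.57 in SG G1-ILCs, and in adult liver at 4.95, 6.84 and 11.4 in 7R+ ILC1s, 6.71, 2.02, 5.50 and 6.78 in 7R- ILC1s and 17.9 and 20.1 in NK cells. Ube2c, the ubiquitin-conjugating enzyme of the APC/C, was at 194, 192 and 227 CPM in FL G1-ILCs, against 49.2, 74.4 and 26.9 CPM in BM NK cells (log2 fold change 2.02 ± 0.65 (SE), edgeR adjusted p = 0.0165), and had no reads in 3 of the adult samples. Espl1, encoding separase, the protease that cuts cohesin, was at 111, 84.9 and 111 CPM in FL G1-ILCs, against 23.2, 39.3 and 20.2 CPM in BM NK cells (log2 fold change 1.89 ± 0.51 (SE), edgeR adjusted p = 0.00514).

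Pttg1, on chromosome 11 (43420250 to 43426251, minus strand, mm10), encodes securin, which holds separase inactive until the APC/C destroys it, and it differed from its target in direction. It was at 36.5, 32.8 and 29.3 normalized CPM in FL G1-ILCs, against 60.1, 52.4 and 48.5 in BM iILC1s and 35.8, 35.6 and 43.5 in BM NK cells. Pttg1 was at 115, 134, 122 and 167 CPM in LPL ILC1s and 103 and 109.9 in SG G1-ILCs, and in adult liver at 74.3, 71.5 and 69.4 in 7R+ ILC1s, 92.9, 80.1, 63.4 and 70.9 in 7R- ILC1s and 53.8 and 53.7 in NK cells. FL G1-ILCs were lower than AL 7R- ILC1s (log2 fold change -1.22 ± 0.15 (SE), edgeR adjusted p = 1.88e-07) and than AL NK cells (log2 fold change -0.71 ± 0.17 (SE), edgeR adjusted p = 0.00208), with no overlap in either comparison. The FL and BM NK samples overlapped (log2 fold change -0.22 ± 0.16 (SE), edgeR adjusted p = 0.32). BM iILC1s were higher than BM NK cells, with no overlap (log2 fold change 0.49 ± 0.16 (SE), edgeR adjusted p = 0.0385), although this call was lost without a filter on low counts, with the replicate block, and without BM iILC1 replicate 1 or 2 or BM NK replicate 1 or 2. LPL ILC1s had the highest values of all groups and did not overlap AL 7R+ ILC1s (log2 fold change 0.91 ± 0.14 (SE), edgeR adjusted p = 6.73e-06).

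**Figure D4:**
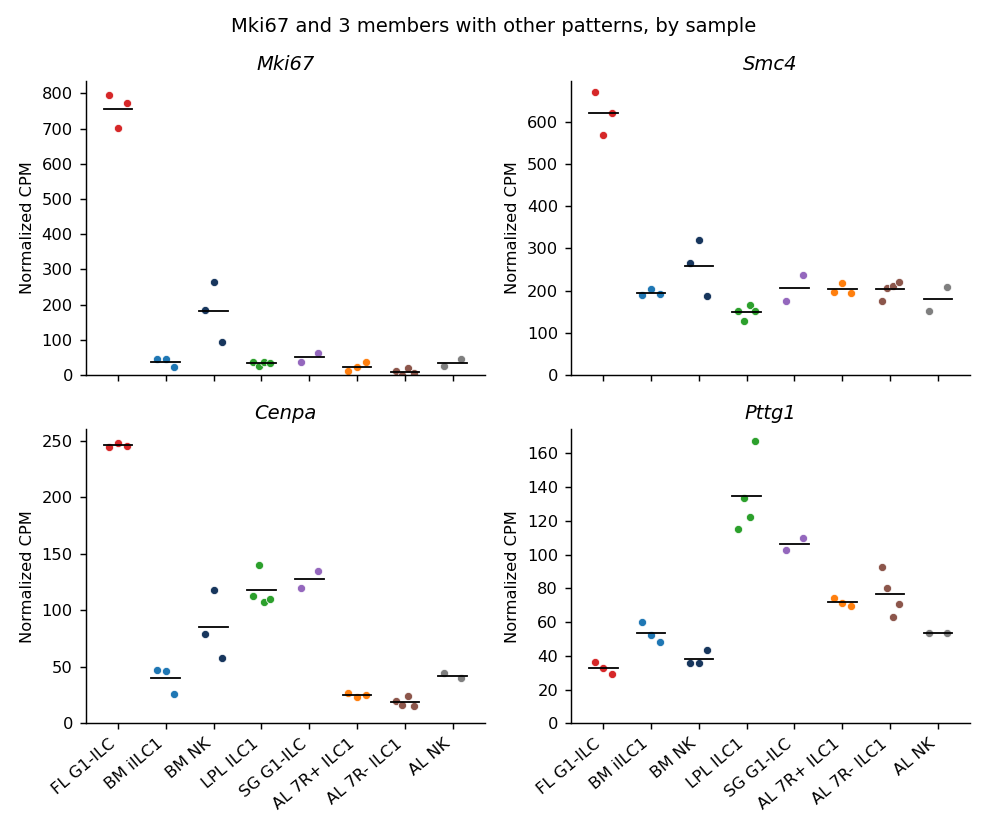
Normalized CPM of Mki67, Smc4, Cenpa and Pttg1 in each of 24 samples (points) by group, with a horizontal line at each group mean. Mki67 is at 1.01 to 61.7 CPM outside FL G1-ILCs and BM NK cells, and Smc4 is at 128 to 321 CPM in all adult samples. Cenpa is above 107 CPM in every LPL and SG sample, and Pttg1 is lowest in FL G1-ILCs and highest in LPL ILC1s.

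In the bone marrow, NK cells and iILC1s differed in nearly all members. In BM iILC1s 41 members were lower and 1 was higher than in BM NK cells (edgeR, adjusted p under 0.05), where 5.55% of all genes were lower and 6.55% higher, and the median log2 fold change was -2.26 over the members and 0.01 over all genes. The lower ones included Mki67 (log2 fold change -2.26 ± 0.43 (SE), edgeR adjusted p = 0.000445), Ccnb1 (log2 fold change -2.92 ± 0.39 (SE), edgeR adjusted p = 3.73e-06) and Tpx2, which brings Aurora A to the spindle (log2 fold change -3.0 ± 0.60 (SE), edgeR adjusted p = 0.000766). Mybl2, Ect2 and Smc4 were not called. Mybl2 was at 4.52, 5.89 and 6.19 CPM in BM iILC1s, against 13.2, 22.7 and 5.46 CPM in BM NK cells, and BM NK replicate 3 fell among the iILC1 values. DESeq2 called 32 members lower. Leaving out BM NK replicate 2, the library with the highest member sum, left 28 lower, and leaving out BM iILC1 replicate 3, the one with the lowest, left 30.

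Markers of other cells differed between these groups. The 15 granulocyte precursor and myeloid genes summed to 279, 1655 and 266 CPM in BM iILC1s, against 196, 170.2 and 379 CPM in BM NK cells, with Elane and Ctsg at 0 in BM NK cells. Both groups were sorted as CD3- cells, and the 11 T cell genes, several of which G1-ILCs also express, summed to 2589, 2292 and 2641 CPM in BM iILC1s, against 1861, 1739 and 1771 CPM in BM NK cells. Within that list Cd3e averaged 147 CPM in BM iILC1s, against 0.0675 CPM in BM NK cells, the largest ratio of the 11, and none was at 0 in either group. Without BM iILC1 replicate 2, the library with the high myeloid sum, 36 members were lower. Its member sum, 1011 CPM, was within the range of the other iILC1 libraries. The part of these genes in the result was not tested.

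BM NK cells were compared with AL NK cells, which share the CD49a- CD49b+ gate. Here 13 members were higher and 0 were lower in BM NK cells, where 1.01% of all genes were higher and 1.57% lower, with a median log2 fold change of 1.71 over the members and 0.0046 over all genes. Those called were the cyclins Ccna2 and Ccnb1; Mki67, Top2a and the condensin gene Ncapd2; Plk1; the checkpoint genes Bub1b and Mad2l1; Cenpa, Cenpe and Cenpf; the chromokinesin gene Kif4; and Cdc20. Ccnb1, the cyclin that carries CDK1 into mitosis, was at 43.0, 90.3 and 38.7 CPM in BM NK cells, against 7.40 and 12.0 CPM in AL NK cells (log2 fold change 2.58 ± 0.44 (SE), edgeR adjusted p = 0.000882). Mki67 had 2.39 ± 0.50 (SE; edgeR adjusted p = 0.007) and Cdc20 2.03 ± 0.44 (SE; edgeR adjusted p = 0.00957) on the same log2 scale. At an unadjusted p under 0.05, 40 members were higher and 1 was lower, and DESeq2 called 10 higher and 0 lower. The count rested on single libraries: it was 1 without AL NK replicate 1, 3 without AL NK replicate 2, 2 without BM NK replicate 2, 7 without BM NK replicate 1 and 22 without BM NK replicate 3.

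BM iILC1s and AL 7R+ ILC1s were much closer. In BM iILC1s 2 members were higher and 0 were lower than in AL 7R+ ILC1s, where 4.23% of all genes were higher and 3.84% lower, a share of members near that of all genes, and the median log2 fold change was 0.61 over the members and 0.0031 over all genes. Ccnb1 was at 11.2, 8.05 and 3.39 CPM in BM iILC1s, against 1.86, 2.65 and 2.3 CPM in AL 7R+ ILC1s, with no overlap (log2 fold change 1.72 ± 0.48 (SE), edgeR adjusted p = 0.0239). Kif23, the kinesin of the midzone complex centralspindlin, was at 15.9, 14.1 and 2.0 CPM in BM iILC1s, against 2.68, 4.19 and 2.53 CPM in AL 7R+ ILC1s (log2 fold change 1.79 ± 0.52 (SE), edgeR adjusted p = 0.0309). BM iILC1 replicate 3 lay below all 3 AL 7R+ libraries for Kif23. At an unadjusted p under 0.05, 8 members were higher and 1 was lower, and DESeq2 called 3 higher and 0 lower. The count was 7 without BM iILC1 replicate 3 and 0 without BM iILC1 replicate 1, BM iILC1 replicate 2 or AL 7R+ replicate 1.

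Within the adult liver, the 2 ILC1 subsets were compared. In the 7R+ subset 1 member was higher and 0 were lower (edgeR), where 3.06% of all genes were higher and 2.22% lower. The share of members called was thus near that of all genes. The log2 fold change was above 0 for 38 of the 45 members, with a median of 0.57 over the members and -0.0033 over all genes. The gene called was Top2a, at 17.3, 56.9 and 52.7 CPM in AL 7R+ ILC1s, against 10.7, 7.75, 25.8 and 2.76 CPM in AL 7R- ILC1s (log2 fold change 1.76 ± 0.46 (SE), edgeR adjusted p = 0.0205). The groups overlapped, since AL 7R+ replicate 1 was below AL 7R- replicate 3. Mki67, which also overlapped, was at 10.7, 24.1 and 36.5 CPM in AL 7R+ ILC1s, against 11.2, 1.01, 18.7 and 6.28 CPM in AL 7R- ILC1s, and did not pass the test (log2 fold change 1.36 ± 0.47 (SE), edgeR adjusted p = 0.11). At an unadjusted p under 0.05, 15 members were higher and 0 were lower, and DESeq2 called 2 higher and 0 lower. AL 7R- replicate 3 had the highest value of its group for 32 members, a share not computed over all genes. Without this library 10 members were higher, and without AL 7R+ replicate 1 the count was 7. The count was 0 without AL 7R- replicate 2, AL 7R- replicate 4, AL 7R+ replicate 2 or AL 7R+ replicate 3. The 10 erythroid genes summed to 415 CPM in AL 7R- replicate 3 and 161 CPM in AL 7R- replicate 2, whose member sums were the highest and the lowest of the group.

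AL 7R- ILC1s fell below AL NK cells in most of the list, with 25 members lower and 1 higher, where 10.5% of all genes were lower and 9.94% higher. The median log2 fold change was -1.85 over the members and 0.01 over all genes. Kif23 was at 0.497, 0.169, 1.59 and 0.503 CPM in AL 7R- ILC1s, against 8.12 and 16.3 CPM in AL NK cells (log2 fold change -3.96 ± 0.63 (SE), edgeR adjusted p = 2.56e-05). Aurkb, the kinase of the passenger complex, was at 5.96, 0.169, 3.91 and 0 CPM in AL 7R- ILC1s, against 22.5 and 18.0 CPM in AL NK cells (log2 fold change -3.02 ± 0.59 (SE), edgeR adjusted p = 0.000333). Neither gene overlapped between the groups. Pttg1 was the member higher in AL 7R- ILC1s, at 92.9, 80.1, 63.4 and 70.9 CPM, against 53.8 and 53.7 CPM in AL NK cells (log2 fold change 0.51 ± 0.17 (SE), edgeR adjusted p = 0.0268). Smc4 and Smc2 were not called (log2 fold changes 0.17 ± 0.16 and -0.14 ± 0.24, SE). The Pttg1 call was lost without either AL NK library or without AL 7R- replicate 1 or 2. The number lower was 14 without AL NK replicate 1, in a group of 2 libraries. The 15 granulocyte precursor and myeloid genes summed to 86.2, 87.7, 92.4 and 104 CPM in AL 7R- ILC1s, against 372 and 407 CPM in AL NK cells. Most of the AL NK sum was Itgam, which NK cells express, at a mean of 67.1 CPM in AL 7R- ILC1s, against 383 CPM in AL NK cells, while Mpo, Elane, Ctsg, S100a8, S100a9 and Ms4a3 were at 0 in AL NK cells.

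LPL ILC1s of the gut differed from AL 7R+ ILC1s in both directions, with 8 members higher and 3 lower, where 24.8% of all genes were higher and 26.2% lower. The shares of members called were thus below those of all genes, and the median log2 fold change was 0.42 over the members and -0.02 over all genes. The higher members were Pttg1, Kif11, Nusap1, Cdc20, Cenpa, Prc1, Kif23 and Ccnb2, and the lower ones were Smc4, Ncapd2 and Foxm1. Foxm1 was at 0.875, 2.01, 0.762 and 0.277 CPM in LPL ILC1s, against 1.86, 4.64 and 5.18 CPM in AL 7R+ ILC1s, with some overlap (log2 fold change -2.0 ± 0.71 (SE), edgeR adjusted p = 0.0203). Kif23 was at 11.1, 14.3, 9.66 and 18.6 CPM in LPL ILC1s, against 2.68, 4.19 and 2.53 CPM in AL 7R+ ILC1s, with no overlap (log2 fold change 2.12 ± 0.51 (SE), edgeR adjusted p = 0.00104). Ncapd2, a condensin I subunit, was at 25.7, 7.17, 20.1 and 12.5 CPM in LPL ILC1s, against 34.0, 21.4 and 30.8 CPM in AL 7R+ ILC1s (log2 fold change -0.82 ± 0.27 (SE), edgeR adjusted p = 0.0121). The LPL libraries carried TMM factors of 0.775 to 0.797, against 1.08 to 1.09 in AL 7R+ ILC1s. On library totals without scaling, the median of all genes was shifted by -0.465 on the log2 scale, and 3 members were higher (Cenpa, Kif23 and Pttg1) and 5 lower. The count of higher members was 3 without AL 7R+ replicate 1 or 2, 4 without LPL replicate 2 and 5 without LPL replicate 3. Marker lists differed here too: the 6 group 1 ILC genes summed to 6580.4 to 7041 CPM in LPL ILC1s, against 12070.4 to 12356 CPM in AL 7R+ ILC1s. The 9 endothelial and epithelial genes summed to 212 to 245 CPM in LPL ILC1s, against 60.8 to 86.0 CPM in AL 7R+ ILC1s, most of it Pecam1, with Krt19 at 0 in AL 7R+ ILC1s. The 8 hepatocyte genes summed to 97.1 to 161 CPM in LPL ILC1s, against 15.7 to 16.8 CPM in AL 7R+ ILC1s, nearly all of it Trf, while Alb averaged 0.703 CPM in LPL ILC1s. Their part in the counts was not tested.

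Cenpa, on chromosome 5 (30666777 to 30674830, plus strand, mm10), stood out in both LPL ILC1s and SG G1-ILCs, the groups released with enzymes. It was at 244, 248 and 245 normalized CPM in FL G1-ILCs, against 47.7, 46.7 and 26.2 in BM iILC1s and 79.0, 118 and 58.1 in BM NK cells. Cenpa was at 113, 141, 108 and 111 CPM in LPL ILC1s and 120.1 and 135 in SG G1-ILCs, and in adult liver at 26.6, 23.4 and 24.9 in 7R+ ILC1s, 19.6, 16.5, 24.3 and 15.6 in 7R- ILC1s and 44.6 and 39.8 in NK cells. Every LPL and SG sample was thus above every adult liver sample and all but one BM NK sample, and below every FL sample, and BM NK replicate 2 lay inside their range. LPL ILC1s were higher than AL 7R+ ILC1s (log2 fold change 2.24 ± 0.21 (SE), edgeR adjusted p = 1.38e-09) and SG G1-ILCs than AL 7R- ILC1s (log2 fold change 2.73 ± 0.22 (SE), edgeR adjusted p = 1.35e-10), the largest excess of LPL ILC1s among the members and one of the 3 largest of SG G1-ILCs. Mki67 and Top2a in the same LPL and SG libraries were at 24.7 to 37.9 and 38.4 to 61.7 CPM and at 28.5 to 52.2 and 54.4 to 59.9 CPM, against 25.3 to 44.8 and 53.0 to 81.5 CPM in AL NK cells.

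SG G1-ILCs were compared with AL 7R- ILC1s, another CD49a+ group. In SG G1-ILCs 17 members were higher and 0 were lower (edgeR, adjusted p under 0.05), where 17.8% of all genes were higher and 14.6% lower, with a median log2 fold change of 1.20 over the members and -0.03 over all genes. They included 5 of the 6 spindle motors and microtubule binders and none of the 6 cyclins, CDK1 and transcription factors. The log2 fold changes were above 0 in both roles, from 1.88 to 3.35 in the first and from 0.70 to 1.65 in the second. Kif11 was at 33.6 and 38.4 CPM in SG G1-ILCs, against 3.73, 0.337, 7.81 and 1.26 CPM in AL 7R- ILC1s (log2 fold change 3.35 ± 0.60 (SE), edgeR adjusted p = 8.81e-05). Kif23 was at 7.61 and 17.4 CPM in SG G1-ILCs, against 0.497, 0.169, 1.59 and 0.503 CPM in AL 7R- ILC1s (log2 fold change 4.02 ± 0.64 (SE), edgeR adjusted p = 1.56e-05). Mki67 was at 38.4 and 61.7 CPM in SG G1-ILCs, against 11.2, 1.01, 18.7 and 6.28 CPM in AL 7R- ILC1s (log2 fold change 2.39 ± 0.51 (SE), edgeR adjusted p = 0.000542). The groups did not overlap for any of these 3 genes. Cdc20 was at 3.38 and 6.57 CPM in SG G1-ILCs, against 6.71, 2.02, 5.50 and 6.78 CPM in AL 7R- ILC1s, and was not called (log2 fold change -0.02 ± 0.59 (SE), edgeR adjusted p = 0.989). At an unadjusted p under 0.05, 19 members were higher and 1 was lower, and DESeq2 called 14 higher and 0 lower. The count of higher members was 7 without SG replicate 1, 8 without SG replicate 2 and 11 without AL 7R- replicate 4, and 1 member was lower without AL 7R- replicate 1 or 3. Macrophage genes were high in these libraries: the 15 granulocyte precursor and myeloid genes summed to 829 and 692 CPM in SG G1-ILCs, against 86.2 to 104 CPM in AL 7R- ILC1s, with Ctsg at 0 in both groups, and C1qb averaged 186 CPM in SG G1-ILCs, against 4.12 CPM in AL 7R- ILC1s. Their part in the counts was not tested.

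Other gene lists of the cell cycle were read beside the members. Of 57 further mitotic genes, 57 were higher in FL G1-ILCs against AL 7R- ILC1s (edgeR, median log2 fold change 4.72). Against BM NK cells 50 were higher (median 1.775). Over all genes, 22.4% and 19.4% were higher in these comparisons. Cdc25c, the phosphatase that activates CDK1, had 6.36 ± 0.76 (SE; edgeR adjusted p = 1.2e-07) and Ska1, which couples kinetochores to microtubules, 5.98 ± 0.70 (SE; edgeR adjusted p = 8.71e-08) against AL 7R- ILC1s, while the condensin II subunits Ncapd3 and Ncaph2 had the smallest called changes, 1.43 ± 0.17 and 1.12 ± 0.10 (SE). BM iILC1s were lower than BM NK cells in 41 of the 57, where 5.55% of all genes were lower.

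The machinery that these genes act on or through changed less. Of 24 genes of the APC/C core and cohesin, 15 were higher and 1 was lower in FL G1-ILCs against AL 7R- ILC1s. Over all genes 22.4% were higher and 20.1% lower. The median log2 fold change of the 24 genes was only 0.54. Anapc15, an APC/C subunit that helps turn the checkpoint off, had the largest at 1.93 ± 0.31 and Anapc5, a scaffold subunit, 1.47 ± 0.11 (SE). Nipbl, which loads cohesin, was the member lower in FL G1-ILCs (log2 fold change -0.45 ± 0.11 (SE), edgeR adjusted p = 0.00126).

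DNA replication genes were higher in the fetal group too, by less than the mitotic ones against the liver subset. Of 47 such genes, 47 were higher in FL G1-ILCs against AL 7R- ILC1s, with a median log2 fold change of 2.525. Against BM NK cells 47 were higher too, with a median of 1.58. The shares of all genes higher were 22.4% and 19.4%. Rrm2, the regulatory subunit of ribonucleotide reductase, was at 722, 569 and 677 CPM in FL G1-ILCs, against 168, 200.1 and 57.9 CPM in BM NK cells and 8.70, 3.20, 13.6 and 4.27 CPM in AL 7R- ILC1s (log2 fold change 6.4 ± 0.45 (SE), edgeR adjusted p = 1.1e-11). Gins4, of the replicative helicase, and Rpa2, which coats single-stranded DNA, were the least changed, at 0.65 ± 0.15 and 0.70 ± 0.13 (SE). The summed CPM of the 44 mitosis genes other than Pttg1 over that of the 47 replication genes was 0.924, 0.922 and 1.01 in FL G1-ILCs, against 0.390, 0.372 and 0.243 in BM iILC1s and 0.606, 0.801 and 0.551 in BM NK cells. In the other groups this ratio was 0.256 to 0.271 in LPL ILC1s, 0.30 to 0.382 in SG G1-ILCs, 0.238 to 0.299 in AL 7R+ ILC1s, 0.182 to 0.264 in AL 7R- ILC1s and 0.337 to 0.342 in AL NK cells. The ratio was higher in the FL samples than in any adult sample.

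**Figure D5:**
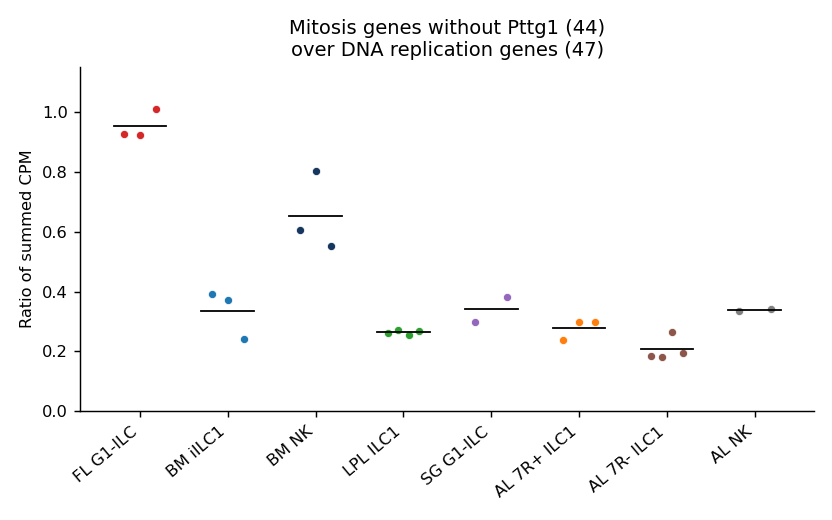
Summed normalized CPM of the 44 mitosis genes other than Pttg1 divided by that of 47 DNA replication genes, in each of 24 samples (points) by group, with a horizontal line at each group mean. The ratio is 0.922 to 1.01 in FL G1-ILCs, 0.551 to 0.801 in BM NK cells, and under 0.4 in every other sample.

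Genes of G1 and the brakes on the cycle were called in both directions, where 22.4% of all genes were higher and 20.1% lower in the same comparison. Of 13 G1 cyclins, CDKs and E2F factors, 10 were higher and 2 lower in FL G1-ILCs against AL 7R- ILC1s. E2f7 and E2f8, the atypical E2F repressors of S phase, had 5.68 ± 0.70 (SE; edgeR adjusted p = 2.43e-07) and 5.67 ± 0.68 (SE; edgeR adjusted p = 1.33e-07). The D-type cyclins Ccnd2 and Ccnd3, which start G1 progression, were the 2 lower genes (log2 fold change -0.57 ± 0.08 (SE), edgeR adjusted p = 9.88e-07, and log2 fold change -0.39 ± 0.08 (SE), edgeR adjusted p = 0.000174). Of 19 cell cycle brakes, 18 passed the filter, and 7 were higher and 3 lower, the 3 lower a share near that of all genes. Cdkn1a, the CDK inhibitor p21, was at 29.4, 28.4 and 24.6 CPM in FL G1-ILCs, against 2.12 to 3.85 CPM in BM NK cells and 0.754 to 1.3 CPM in AL 7R- ILC1s (log2 fold change 4.55 ± 0.34 (SE), edgeR adjusted p = 3.01e-11), and it stood at 472, 619, 527 and 566 CPM in LPL ILC1s and at 157 and 184 CPM in SG G1-ILCs. Btg1 and Btg2, antiproliferative genes of resting lymphocytes, were lower in FL G1-ILCs (log2 fold change -1.79 ± 0.11 (SE), edgeR adjusted p = 1.34e-12, and log2 fold change -1.28 ± 0.09 (SE), edgeR adjusted p = 8.06e-12).

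The promoters of the members were read for the elements named above, in RefSeq windows of 250 bases before and 50 after the start of each gene (GRCm38.p6, the patched form of mm10). Of the 45 members, 38 had an entry. A CHR hexamer, written TTTGAA or TTCGAA on either strand, was present in 29 of the 38 (76.3%), against 21.7% of all 27025 genes with an entry (19.2% of all windows). A CCAAT box on either strand was present in 27 (71.1%), against 41.1% of all genes, and both were present in 25 (65.8%), against 8.61%. Birc5, Mad2l1, Mybl2, Ncaph, Nuf2, Nusap1 and Pttg1 had neither, the Pttg1 window lying inside the GENCODE gene. The windows of Kif2c, Cdca8 and Kif4, counted here as holding a CHR hexamer, also lay inside their GENCODE genes. A match to these letters is a description of the window and not a site of binding.

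Windows of 3 genes whose RNA followed the common pattern, and of Pttg1, whose RNA did not, are shown so that the elements can be seen. The 3 hold both elements before the start, which is not so of every member with a match. In Plk1 and Cenpa, for example, the CHR hexamer lay only after the start. Each window shown is the 250 bases before the start, 5′ to 3′ on the gene's strand. CHR hexamers and CCAAT boxes on either strand are in capitals (TTCAAA and ATTGG are their reverse complements).
Mki67, chr7:135716380-135716629, minus strand: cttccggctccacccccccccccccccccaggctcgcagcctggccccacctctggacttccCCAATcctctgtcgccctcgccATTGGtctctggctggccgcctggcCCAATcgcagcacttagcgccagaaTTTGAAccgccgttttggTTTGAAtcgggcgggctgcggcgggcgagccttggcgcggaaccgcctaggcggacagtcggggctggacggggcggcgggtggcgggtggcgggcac
Ube2c, chr2:164769679-164769928, plus strand: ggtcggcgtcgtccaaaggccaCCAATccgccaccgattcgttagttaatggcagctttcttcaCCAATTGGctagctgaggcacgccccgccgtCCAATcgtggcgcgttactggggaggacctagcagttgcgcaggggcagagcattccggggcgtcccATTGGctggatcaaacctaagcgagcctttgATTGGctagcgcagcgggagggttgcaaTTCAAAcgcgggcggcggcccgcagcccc
Cdc20, chr4:118437344-118437593, minus strand: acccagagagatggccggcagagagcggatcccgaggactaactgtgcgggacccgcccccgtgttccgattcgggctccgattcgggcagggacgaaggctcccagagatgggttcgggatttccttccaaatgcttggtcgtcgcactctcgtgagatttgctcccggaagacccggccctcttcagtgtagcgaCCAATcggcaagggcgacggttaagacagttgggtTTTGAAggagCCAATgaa
Pttg1, chr11:43425982-43426231, minus strand: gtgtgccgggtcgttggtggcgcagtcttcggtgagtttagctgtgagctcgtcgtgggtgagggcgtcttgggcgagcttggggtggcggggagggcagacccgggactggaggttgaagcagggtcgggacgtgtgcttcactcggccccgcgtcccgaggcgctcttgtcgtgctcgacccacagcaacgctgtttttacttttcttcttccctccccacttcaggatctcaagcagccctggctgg
In the Mki67 window the 2 CHR hexamers begin 116 and 98 bases before the start and the CCAAT boxes lie 188, 166 and 141 bases before it. Ube2c has a CHR hexamer 29 bases before its start and 6 CCAAT boxes, 1 pair of which overlap in the run CCAATTGG, and Cdc20 has a CHR hexamer 18 bases before its start with CCAAT boxes on both sides of it. The Pttg1 window lies wholly inside the GENCODE gene (43420250 to 43426251), so the bases before that gene's own start were not read. This window holds neither element, which leaves the promoter at the GENCODE start undescribed. The windows of Birc5 and Nusap1, whose RNA was high in FL G1-ILCs and next in BM NK cells, hold neither as well.

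Reads of a few members cannot be told apart from those of neighbours on the opposite strand, because the strand setting of the counting is not given in the sources used here: Ccna2 overlaps Exosc9, Nusap1 overlaps Oip5, Cdc20 overlaps Elovl1, Ube2c overlaps Tnnc2, Prc1 overlaps Rccd1, Kif20a overlaps Cdc23, Ncapg overlaps Lcorl and Kif4 overlaps Pdzd11, beside noncoding and predicted genes at several members. Foxm1 overlaps Tex52 on its own strand. Ccnb1, Ccnb2 and Kif4 also have annotated processed pseudogenes, which could share reads with them.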

How the data were processed

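Each library was made from a small sorted pool with a SMART-Seq kit and sequenced as 150 bp paired ends. Per the submitters' processing notes and the methods of the study, trimming was done with fastp 0.23.0, alignment to mm10 with HISAT2 2.1.0 and gene counting with featureCounts (Subread 1.6.5); the authors deposited raw counts for 25 libraries. The annotation release, strand and multiple-mapping settings are not given in the sources used here. Reads carry no molecular identifiers, so counts are not independent molecules.

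Of 46078 genes, 45143 were matched to GENCODE vM21 for names and positions; the other 935 held 0.104% of counts. FL G1-ILC replicates 2 and 3 were summed. Genes passing edgeR's filterByExpr (minimum count 10) were scaled by TMM, and a quasi-likelihood model over all 8 groups (edgeR 4.0.16, limma 3.58.1, R 4.3.3) gave log2 fold changes with Benjamini-Hochberg adjustment over 14123 genes, without a replicate block; a difference was called at an adjusted p under 0.05. Normalized CPM were computed on the TMM-scaled library totals. The fit was tested on simulated data. DESeq2 1.42.0, other filters, scalings, thresholds and sets of samples, and each library left out, were alternatives. Promoters came from RefSeq (GRCm38.p6).

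The members and gene lists were chosen with earlier results of these data known. Mki67 and, within each role, the 2 members with the highest mean over the 8 groups are given in every sample; also named by rule are members not called where at least 3 in 4 were called, members called where fewer than 1 in 4 were, and, of each pathway list, the 2 highest and 2 lowest called changes between FL G1-ILCs and AL 7R- ILC1s (average log2 CPM of at least 3). Other members were named after their values were seen.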

Additional observations from a re-analysis of the deposited data

Results flagged for a closer look

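Of 48 sets of values (the summed level and the members named by rule, in the groups with 4 samples), 2 held a sample far from the others, where chance gives about 1 in 20. Ccna2 was at 2.01 CPM in LPL ILC1 replicate 2, the lowest of its group, against 7.62 to 8.17 CPM in the other 3 libraries. Cenpa was at 140.5 CPM in the same library, the highest of its group, against 107.8 to 112.6 CPM in the others.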

How the results depend on the processing

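The count of members higher in FL G1-ILCs against AL 7R- ILC1s or AL NK cells was 44 under every alternative, and against BM NK cells the count was 35 (DESeq2) to 44. Requiring a log2 fold change of at least 1 left 0 lower against AL NK cells. Without a filter on low counts the numbers higher were 38 for BM NK over AL NK cells, 18 for BM iILC1s over AL 7R+ ILC1s, 18 for AL 7R+ over AL 7R- ILC1s, 26 for SG G1-ILCs, and 0 for BM iILC1s over BM NK cells and for AL 7R- ILC1s over AL NK cells; 5 were lower in LPL ILC1s and 1 in SG G1-ILCs. Fitting only the groups compared gave 32 higher for BM NK over AL NK cells, 1 for BM iILC1s over AL 7R+ ILC1s, and 1 lower each in LPL ILC1s and SG G1-ILCs. At an adjusted p under 0.01 the numbers higher were 3 for BM NK over AL NK cells, 0 for each of BM iILC1s over AL 7R+ ILC1s, BM iILC1s over BM NK cells, AL 7R+ over AL 7R- ILC1s and AL 7R- ILC1s over AL NK cells, 3 in LPL ILC1s (0 lower) and 7 in SG G1-ILCs. With a log2 fold change of at least 1, 0 were higher for BM iILC1s over BM NK cells and for AL 7R- ILC1s over AL NK cells, and 1 was lower in LPL ILC1s. BM iILC1s over AL 7R+ ILC1s gave 4 under a stricter filter, with all 25 libraries and on library totals without scaling, an alternative chosen after seeing the data. On those totals 2 were higher for AL 7R+ over AL 7R- ILC1s, 3 higher and 5 lower in LPL ILC1s, and 1 lower in SG G1-ILCs. DESeq2 gave 2 for AL 7R+ over AL 7R- ILC1s and 5 higher in LPL ILC1s.

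Leaving out 1 library at a time gave 1 to 22 higher for BM NK over AL NK cells, 0 to 7 for BM iILC1s over AL 7R+ ILC1s, 0 to 1 for BM iILC1s over BM NK cells, 0 to 10 for AL 7R+ over AL 7R- ILC1s, 0 to 1 higher and 14 to 33 lower for AL 7R- ILC1s beside AL NK cells, 3 to 11 higher in LPL ILC1s, and 7 to 24 higher and 0 to 1 lower in SG G1-ILCs. A lone library left in a group of 2 was assumed to vary like the other groups.

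Whether same-numbered libraries of different groups share an animal or a sort is not given in the labels. Over 69 such pairs the correlation of their deviations averaged -0.00619 (-0.0887 to 0.0393). A low correlation over all genes cannot exclude a shared origin. With the replicate block, 0 members were higher in BM iILC1s than in BM NK cells and 5 in LPL ILC1s. For 137 calls of single named members, 1919 values were recomputed under the alternatives, of which 1750 kept the call, 169 lost it and 0 reversed. The causes were not tested, beyond the fewer samples or genes that some alternatives hold. Depth limits the low members: several rest on a few reads per library in AL 7R- ILC1s.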
